A study of Homo sapiens with 12 samples.

Results

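Molecular chaperones of the cytosol keep proteins folded and were described here through 10 genes: the small heat shock protein genes CRYAB and HSPB1, the HSP70 genes HSPA6, HSPA1A, HSPA1B and HSPA8, the HSP70 helpers DNAJB1, BAG3 and HSPH1, and the HSP90 gene HSP90AA1. They were found in the expression table by their Ensembl identifiers through GENCODE 29 symbols, and all 10 were present among its 59191 rows and passed the expression filter that kept 15352 genes for testing. HSPA6 passed it only through libraries with disulfiram, as described below. The table comes from RNA sequencing of Huh7 cells, a human hepatoma line long grown in culture, with 3 libraries in each of 4 groups: disulfiram together with thalidomide (the combination), disulfiram alone, thalidomide alone, and a control whose columns are named for the solvent DMSO. Disulfiram is an inhibitor of aldehyde dehydrogenases used against alcohol dependence, and thalidomide redirects a ubiquitin ligase by binding its receptor subunit cereblon. The sources used here give no dose with a unit, treatment time, read depth or strandedness, and the extraction text attached to the labels describes dissociated tumour tissue rather than a cell line. Whether replicates came from separate cultures is not stated, and the p-values reflect the spread of these libraries, which may be technical.

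HSP70 proteins bind exposed hydrophobic stretches of unfolded proteins and release them in a cycle driven by ATP. J-domain proteins such as DNAJB1 hand over substrates and start ATP hydrolysis, and nucleotide exchange factors such as BAG3 and HSPH1 reset the cycle. Small heat shock proteins hold unfolding proteins without using ATP, and HSP90 matures kinases and steroid receptors. Some of these genes are highly expressed without stress (HSPA8 in most cells), whereas others (HSPA6, HSPA1A, HSPA1B, DNAJB1) are classical targets of heat shock factor 1, which binds repeats of nGAAn in alternating orientation in their promoters.

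Promoter windows from 250 bases before to 50 bases after the start site were taken from RefSeq (GRCh38.p14) and were found for 9 of the 10 genes, as 12 windows, because some genes have several start sites; no window was matched for CRYAB. Both strands were searched for a two-unit element of 8 letters, GAANNTTC or TTCNNGAA, and for a three-unit element of 13 letters, GAANNTTCNNGAA or its reverse complement TTCNNGAANNTTC; the shorter element also lies inside every longer match. The two-unit element was in 8 of these 12 windows, belonging to 7 of 9 genes, and in 13.49% of all 35116 promoter windows of the same length. The three-unit element was in 3 of the 12 windows, those of HSPA6, HSPA8 and HSP90AA1, and in 0.49% of all windows. No two-unit match lay in the windows of BAG3 and HSPH1. The TATAAA box, searched on both strands, was in the windows of 2 of the 9 genes, HSPA1A and HSPA1B, and in 11.53% of all windows. For each of the 7 genes with a two-unit match a single stretch is shown, because these genes responded very differently, as described below. HSPA6, HSPA8 and DNAJB1 held further matches outside the stretch shown. Capitals mark the fixed letters of the elements and each line is written 5′ to 3′ on the strand of the gene.

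HSPA6, chr1:161524451-161524493, plus strand: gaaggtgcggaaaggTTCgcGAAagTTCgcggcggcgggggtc
HSPA1A, chr6:31815422-31815459, plus strand: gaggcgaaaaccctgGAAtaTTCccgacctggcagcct
HSPA1B, chr6:31827618-31827655, plus strand: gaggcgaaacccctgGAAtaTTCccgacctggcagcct
DNAJB1, chr19:14518452-14518489, minus strand: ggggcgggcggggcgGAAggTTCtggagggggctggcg
HSPB1, chr7:76302476-76302513, plus strand: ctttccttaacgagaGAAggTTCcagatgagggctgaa
HSPA8, chr11:123062171-123062199, minus strand: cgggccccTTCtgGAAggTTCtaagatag
HSP90AA1, chr14:102087104-102087133, minus strand: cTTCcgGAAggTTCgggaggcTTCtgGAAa

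The HSPA1A and HSPA1B stretches differed at 1 of 38 bases, which illustrates how alike these neighbouring copies on chromosome 6 are. The HSPA8 and HSP90AA1 stretches lie inside an exon of a longer GENCODE transcript. A match describes letters only and was not tested for binding.

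Against control, 6 of the 10 genes rose past the threshold with disulfiram, with and without thalidomide. With thalidomide alone none of the 10 passed in either direction, and neither did any other gene tested. The 6 genes were CRYAB, HSPA6, HSPA1A, HSPA1B, DNAJB1 and BAG3, and their ratios of mean TPM to control ran from 604.5 for HSPA6 to 1.374 for BAG3 with the combination, and from 472.4 for HSPA6 to 1.508 for DNAJB1 with disulfiram. The HSPA6 ratios divide by a control mean of 0.1033 TPM, near the rounding of the values, so their size is coarse. HSPB1, HSPA8, HSPH1 and HSP90AA1 did not pass the test in either comparison with control. TPM is a length-scaled share of all transcripts, so levels can be compared between genes. Log2 fold changes below are on the log2(TPM + 1) scale ± SE from limma over all 12 libraries (3 per group), with Benjamini-Hochberg adjustment over all genes and a threshold of 0.05. In bulk RNA a change in the share of cells that express a gene and a change in RNA per cell cannot be told apart. TPM keeps no read depth, so no counting interval can be given.

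Among all genes tested, 18.4% rose, 6.7% fell and 25.1% passed in either direction with the combination. With disulfiram 8.73% rose, 4.52% fell and 13.2% passed in either direction. The balance of these calls depends on scaling: of the genes called, 73.3% were rises with the combination and 65.9% with disulfiram, against 36.2% and 40.1% with median-of-ratios scaling. The median log2 fold change of the 10 genes was 0.73 with the combination, against 0.20 over all genes, and 0.61 with disulfiram, against 0.09 over all genes. Since the 10 genes were chosen with earlier results of these data known, setting them against all genes is a description and not a test. The libraries of 7 genes lay wholly above control with the combination (33.9% of all genes did so) and those of 6 genes with disulfiram (21.5% of all genes). Small rises with the combination are therefore given relative to that median of 0.20 as well.

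**Figure D1:**
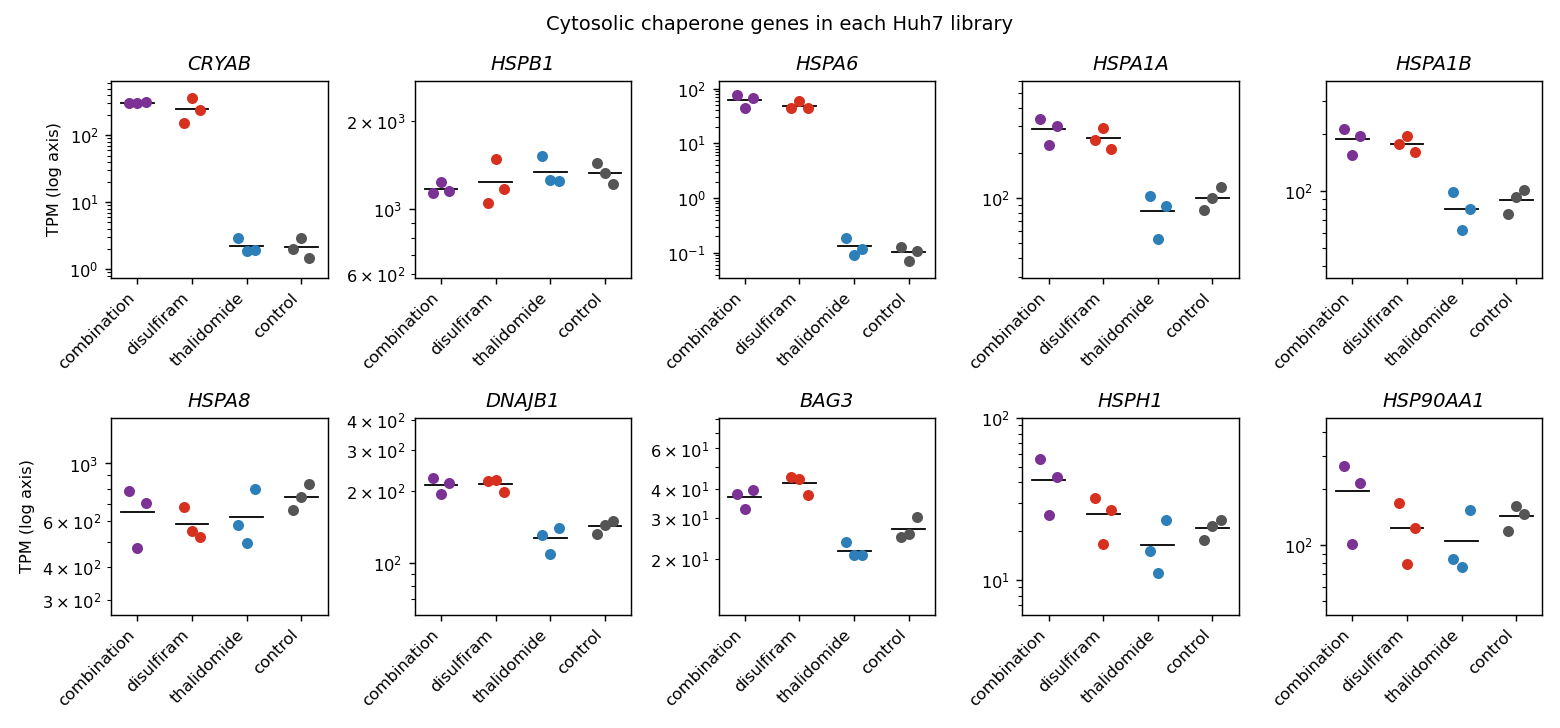
TPM of the 10 chaperone genes on log axes in the combination, disulfiram, thalidomide and control libraries; each point is a library and each black line a group mean of 3. CRYAB and HSPA6 libraries with disulfiram lie far above those without it, whereas HSPB1 and HSPA8 libraries with either disulfiram treatment overlap those of control.

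Of the small heat shock proteins, CRYAB (ENSG00000109846, chr11:111908565-111923722, minus strand, hg38), which encodes alpha-B crystallin, known from the eye lens and striated muscle, was nearly silent in cells without disulfiram. It measured 305.24, 300.92 and 319.03 TPM in the combination libraries and 150.75, 360.34 and 235.9 TPM in the disulfiram libraries, against 2.96, 1.86 and 1.94 TPM with thalidomide and 2.03, 2.89 and 1.49 TPM in control. Every library with disulfiram was far above every library without it, and the disulfiram libraries were the most spread. The log2 fold change against control was 6.65 ± 0.26 with the combination (adjusted p = 5.05e-08) and 6.25 ± 0.26 with disulfiram (adjusted p = 1.03e-07), the second highest of all genes tested in both comparisons. CRYAB was thereby the third highest of the 10 genes with the combination and the second lowest in control. With the combination it averaged 308.4 ± 9.46 TPM (SD, n = 3), close to HSPA1A at 287.7 ± 55.9 TPM, whose libraries it overlapped. The gene HSPB2, which lies next to CRYAB in head-to-head orientation, did not exceed 0.33 TPM in any library.

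HSPB1 (ENSG00000106211, chr7:76302544-76304295, plus strand) encodes HSP27, which binds unfolding proteins and actin, and was the highest of the 10 genes in all 4 groups. It averaged 1177 ± 54.0 TPM with the combination, 1238 ± 228 TPM with disulfiram, 1347 ± 156 TPM with thalidomide and 1330 ± 112 TPM in control (SD, n = 3 each). Its log2 fold change was -0.17 ± 0.12 with the combination (adjusted p = 0.292) and -0.12 ± 0.12 with disulfiram (adjusted p = 0.586). The interval of the disulfiram change ran from -0.38 to 0.15. In all 3 treated groups its libraries overlapped those of control, although the combination libraries (1139.94 to 1238.96 TPM) lay wholly below the thalidomide libraries (1254.55 to 1527.73 TPM), as did those of 10.8% of all genes. The log2 difference of -0.19 ± 0.12 did not pass (adjusted p = 0.242). CRYAB made up 19.5% to 21.7% of the summed TPM of CRYAB and HSPB1 in the combination libraries, 12.6% to 19.5% with disulfiram, 0.147% to 0.193% with thalidomide and 0.122% to 0.217% in control.

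HSPA6 (ENSG00000173110, chr1:161524540-161526910, plus strand), a gene of 1 exon, encodes HSP70B′, a form that human cells make almost only under stress. It measured 76.3, 44.84 and 66.24 TPM in the combination libraries and 43.94, 58.52 and 43.98 TPM in the disulfiram libraries, against 0.19, 0.09 and 0.12 TPM with thalidomide and 0.13, 0.07 and 0.11 TPM in control. The groups with disulfiram did not overlap those without it. HSPA6 reached the filter level of 1 TPM only in libraries with disulfiram. Its place among the genes tested and its change therefore come from the same values. The log2 fold change was 5.81 ± 0.18 with the combination (adjusted p = 4.72e-09) and 5.48 ± 0.18 with disulfiram (adjusted p = 9.34e-09), the third highest of all genes tested in both. Because control values lay far below the pseudocount of 1, the size depends on it, and a pseudocount of 0.1 gave 8.24 with the combination and 7.91 with disulfiram. HSPA7, a near-identical pseudogene, was at 0 to 0.03 TPM in the 12 libraries.

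**Figure D2:**
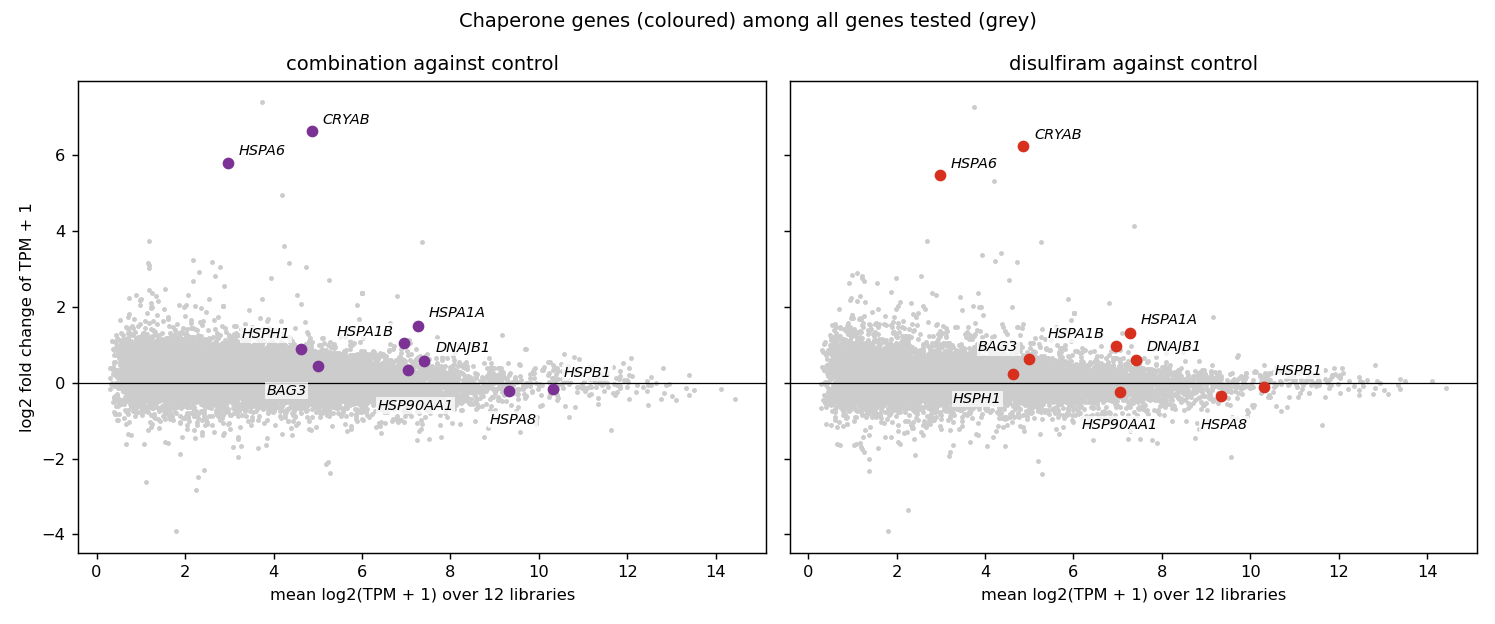
Log2 fold change of TPM + 1 against control plotted over mean log2(TPM + 1) for 15352 genes (grey) and the 10 chaperone genes (coloured), with the combination on the left and disulfiram on the right. CRYAB and HSPA6 are the second and the third highest points of both panels, and HSPB1 and HSPA8 lie just below 0 at high expression.

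HSPA1A (ENSG00000204389, chr6:31815464-31817946) and HSPA1B (ENSG00000204388, chr6:31827735-31830255), both on the plus strand, encode nearly the same inducible HSP70 protein, so the division of reads between them is uncertain and their sum is the safer value. HSPA1A measured 333.79, 225.55 and 303.74 TPM in the combination libraries and 244.91, 292.91 and 212.89 TPM with disulfiram, against 102.99, 53.0 and 89.07 TPM with thalidomide and 83.77, 99.51 and 118.23 TPM in control. All libraries with disulfiram were above all libraries without it. HSPA1A rose by 1.50 ± 0.23 with the combination (log2, adjusted p = 0.00185) and by 1.31 ± 0.23 with disulfiram (log2, adjusted p = 0.00392). HSPA1B averaged 187.4 ± 29.7 TPM with the combination and 177.6 ± 17.7 TPM with disulfiram, against 80.51 ± 18.4 TPM with thalidomide and 89.75 ± 13.1 TPM in control (SD, n = 3 each). It rose by 1.05 ± 0.17 with the combination (log2, adjusted p = 0.00248) and by 0.98 ± 0.17 with disulfiram (log2, adjusted p = 0.00362).

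The sum of HSPA1A and HSPA1B averaged 475.1 ± 85.6 TPM with the combination, 427.9 ± 58.0 TPM with disulfiram, 162.2 ± 43.8 TPM with thalidomide and 190.2 ± 30.1 TPM in control (SD, n = 3 each). It rose by 1.31 ± 0.20 with the combination (log2, adjusted p = 0.00182) and by 1.17 ± 0.20 with disulfiram (log2, adjusted p = 0.00336). HSPA1A took 59.34% to 61.12% of the sum in the combination libraries, 56.99% to 59.9% with disulfiram, 45.99% to 52.61% with thalidomide and 51.72% to 53.94% in control. The share was therefore higher in every library with disulfiram, and whether this reflects read assignment was not tested.

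HSPA8 (ENSG00000109971, chr11:123057489-123063230, minus strand) encodes HSC70, the cognate HSP70 that housekeeping folding and clathrin uncoating depend on. It measured 784.07, 473.86 and 702.09 TPM in the combination libraries and 678.31, 548.4 and 523.08 TPM with disulfiram, against 580.62, 493.11 and 798.73 TPM with thalidomide and 663.0, 743.61 and 832.25 TPM in control. The groups overlapped, and the change of -0.22 ± 0.20 with the combination (log2, adjusted p = 0.424) and -0.36 ± 0.20 with disulfiram (log2, adjusted p = 0.272) did not pass. Its promoter window held 2 three-unit elements, of which the stretch printed above is the nearer to the start site. HSPA8 was the largest HSP70 transcript in every library.

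The HSP70 pool shifted in make-up. The inducible genes HSPA1A, HSPA1B and HSPA6 together made up 44.25%, 47.28% and 44.61% of the summed TPM of the 4 HSP70 genes in the combination libraries and 40.67%, 49.96% and 44.39% in the disulfiram libraries. They made up 25.83%, 18.96% and 17.5% with thalidomide and 19.37%, 20.56% and 20.85% in control. The lowest share with disulfiram was thus well above the highest share without it. The pool itself was 898.82 to 1406.5 TPM in the combination libraries, 940.62 to 1143.3 TPM with disulfiram, 608.44 to 968.14 TPM with thalidomide and 822.29 to 1051.5 TPM in control. Its size therefore overlapped between groups with and without disulfiram, while its make-up did not. All 10 genes together summed to 2793.0 to 3437.8 TPM with the combination, 2736.8 to 3311.3 TPM with disulfiram, 2086.8 to 2568.3 TPM with thalidomide and 2560.0 to 2622.9 TPM in control.

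**Figure D3:**
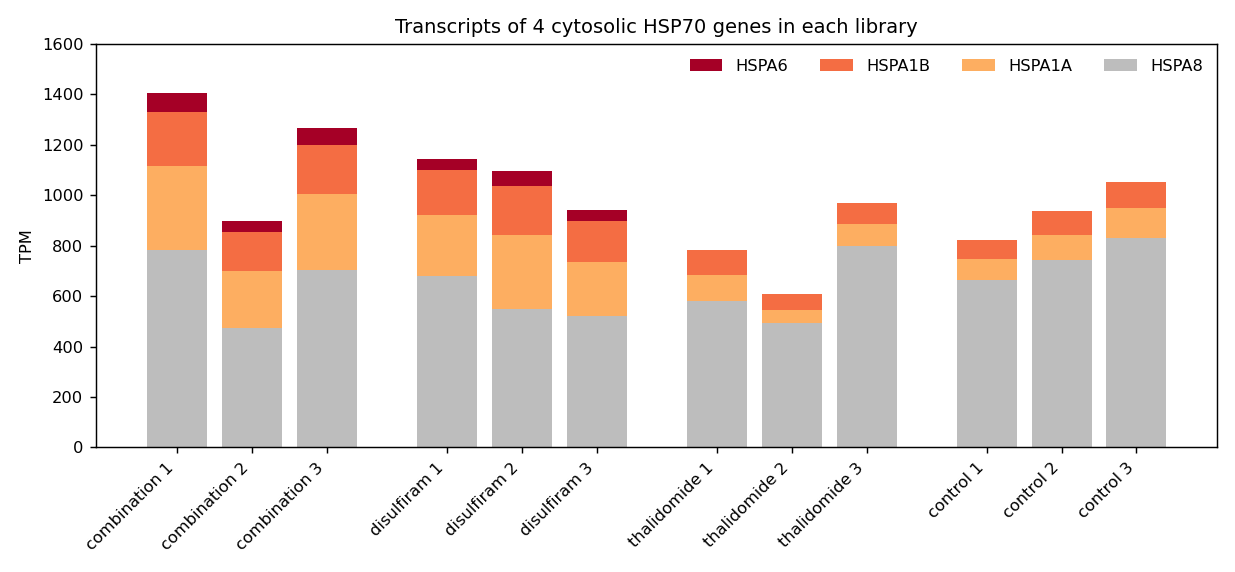
Stacked TPM of HSPA8, HSPA1A, HSPA1B and HSPA6 in each of the 12 libraries, ordered combination, disulfiram, thalidomide, control. The coloured inducible part fills 40.67% to 49.96% of each bar with disulfiram and 17.5% to 25.83% of each bar without it.

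DNAJB1 (ENSG00000132002, chr19:14514770-14529770, minus strand) encodes HSP40, the J-domain partner that heat shock induces together with HSP70. It measured 226.99, 195.77 and 216.81 TPM in the combination libraries and 221.15, 224.17 and 199.41 TPM with disulfiram, against 131.31, 108.92 and 140.21 TPM with thalidomide and 131.94, 144.88 and 150.69 TPM in control. Groups with and without disulfiram did not overlap. It rose by 0.58 ± 0.10 with the combination (log2, adjusted p = 0.00368) and by 0.59 ± 0.10 with disulfiram (log2, adjusted p = 0.00333). Relative to the median of all genes the combination change was 0.38, and with median-of-ratios scaling it was 0.34 and missed the threshold (adjusted p = 0.0571).

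BAG3 (ENSG00000151929, chr10:119651370-119677819, plus strand), the exchange factor that links HSP70 to small heat shock proteins and to selective autophagy, measured 38.34, 32.89 and 39.88 TPM in the combination libraries and 45.22, 44.32 and 37.93 TPM with disulfiram. It measured 23.65, 20.77 and 20.92 TPM with thalidomide and 24.84, 25.7 and 30.3 TPM in control. The groups with disulfiram lay above control, and the thalidomide libraries lay below it. BAG3 rose by 0.64 ± 0.11 with disulfiram (log2, adjusted p = 0.00385) and by 0.45 ± 0.11 with the combination (log2, adjusted p = 0.0167). The combination call was lost without combination library 1 (adjusted p = 0.0625), combination library 3 (0.0744), control library 1 (0.0619) or control library 2 (0.0508), and with median-of-ratios (0.253) or quantile scaling (0.0593). Relative to the median of all genes the BAG3 change with the combination was 0.24.

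HSPH1 (ENSG00000120694, chr13:31134974-31162388, minus strand) encodes HSP110, an exchange factor of HSP70 with its own holding activity. It measured 55.75, 25.07 and 42.96 TPM in the combination libraries and 32.22, 16.7 and 27.16 TPM with disulfiram, against 15.14, 10.99 and 23.39 TPM with thalidomide and 17.64, 21.47 and 23.58 TPM in control. All 3 combination libraries were above control, the lowest only just, and the disulfiram libraries overlapped control. The change was 0.89 ± 0.32 with the combination (log2, adjusted p = 0.0595) and 0.23 ± 0.32 with disulfiram (log2, adjusted p = 0.696). HSPH1 passed with the combination in 7 of 25 alternatives. These included leaving out combination library 2 (1.20, adjusted p = 0.0143), disulfiram library 2 (0.89, adjusted p = 0.0411) or thalidomide library 3 (0.89, adjusted p = 0.0469). The others were array weights, a replicate block, a fit of only the compared groups, and leaving out library 2 of both disulfiram and the combination (adjusted p = 0.00227 to 0.0494). HSPH1 did not pass after correction for GC content (0.44, adjusted p = 0.188).

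HSP90AA1 (ENSG00000080824, chr14:102080738-102139699, minus strand) encodes the stress-inducible HSP90 of the cytosol. It measured 265.11, 100.57 and 213.26 TPM in the combination libraries and 167.44, 78.7 and 123.89 TPM with disulfiram, against 84.62, 76.58 and 152.74 TPM with thalidomide and 118.34, 161.4 and 145.99 TPM in control. The libraries of every pair of groups overlapped. The change was 0.34 ± 0.37 with the combination (log2, adjusted p = 0.496) and -0.25 ± 0.37 with disulfiram (log2, adjusted p = 0.705). With library 2 of disulfiram and of the combination both left out, the combination change was 0.75 (adjusted p = 0.0487). HSP90AB1, the constitutive HSP90 and no member of the 10, fell to 634.1 ± 5.04 TPM with disulfiram, against 844.8 ± 27.0 TPM in control (SD, n = 3 each; log2 fold change -0.41 ± 0.06, adjusted p = 0.00158).

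**Figure D4:**
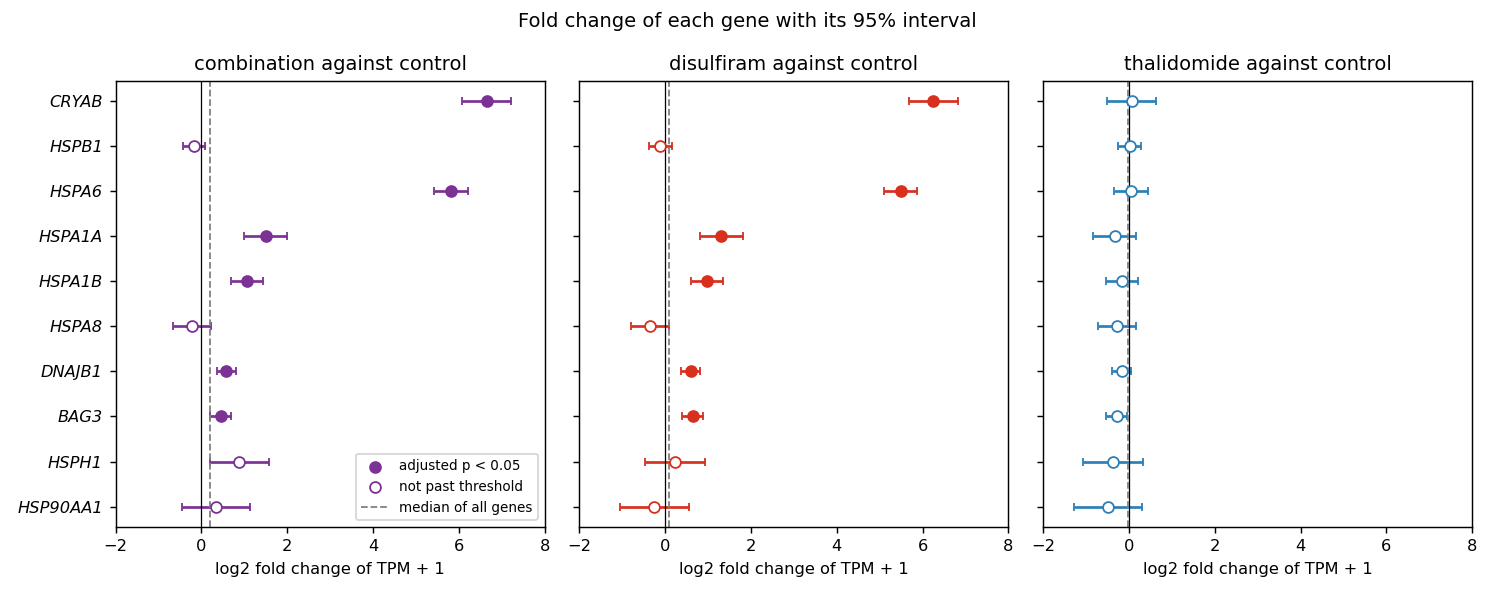
Log2 fold change of TPM + 1 of each gene against control with its 95% interval, for the combination, disulfiram and thalidomide; filled points passed an adjusted p of 0.05 and the dashed line is the median of all genes. CRYAB and HSPA6 lie between 5.48 and 6.65 in the panels with disulfiram, and no thalidomide point is filled.

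Some of the members also differed between libraries of a group along with their base composition. HSPH1, HSP90AA1 and HSPA8 have the lowest GC content of the 10 (39.95%, 45.24% and 46.98% of the longest transcript), and the others lie at 53.05% to 64.33%, beside a median of 48.85% over genes tested. In the second combination and second disulfiram libraries, the deviation of all genes from their group mean followed GC content (Spearman rho 0.66 and 0.60 across genes, which are not independent), and it ran from -0.59 to 0.48 in the other 10 libraries. HSPH1 and HSP90AA1 were lowest of their group in both of these libraries. Of the 7 members richer in GC, CRYAB, HSPB1, HSPA6, HSPA1A, HSPA1B and DNAJB1 were highest of their group in disulfiram library 2, whereas BAG3 was highest in disulfiram library 1. In combination library 2 the pattern was not the same, since 9 of the 10 genes were lowest there and only HSPB1 was highest. The part of GC content in the results for HSPH1 and HSP90AA1 was not tested beyond the correction, under which neither passed against control. After it CRYAB, HSPA6, HSPA1A, HSPA1B, DNAJB1 and BAG3 passed in both comparisons with control.

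**Figure D5:**
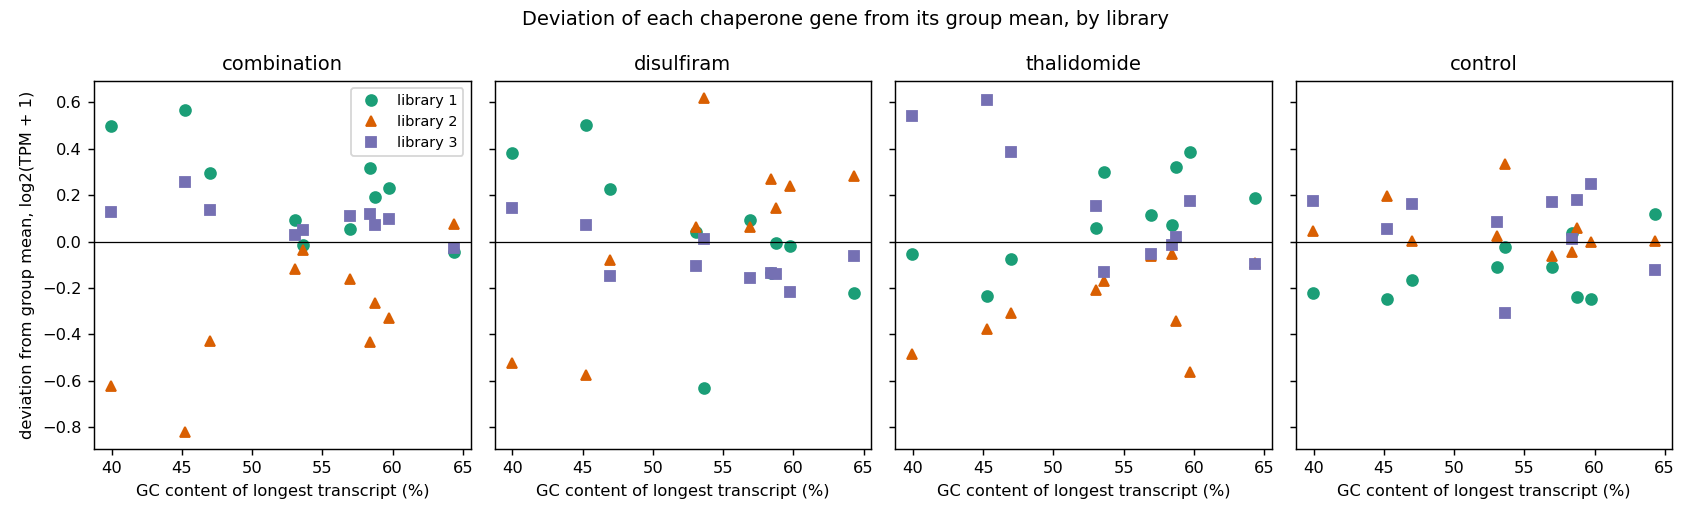
Deviation of each of the 10 genes from its group mean on the log2(TPM + 1) scale, plotted over the GC content of its longest transcript, with a panel per group and a symbol per library. In library 2 of the combination and of disulfiram the points at 39.95% and 45.24% GC (HSPH1 and HSP90AA1) lie below those of the same gene in the other libraries of the group, and CRYAB in disulfiram library 1 is the lowest point of the disulfiram panel.

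Thalidomide alone was compared with control to see whether it acts on these genes by itself. None of the 10 genes passed limma's adjusted threshold, and none of all 15352 genes did (0.0%), while 1 of the 10 and 873 of all genes had an unadjusted p below 0.05. The member was BAG3, at 21.78 ± 1.62 TPM with thalidomide and 26.95 ± 2.94 TPM in control (SD, n = 3 each), with a log2 change of -0.29 ± 0.11 (adjusted p = 0.803). Its thalidomide libraries lay wholly below control, as did those of 6.32% of all genes, and no member lay wholly above control (3.91% of all genes). The median log2 change of the 10 genes was -0.23, and that of all genes was -0.03. CRYAB changed by 0.06 with an interval of -0.51 to 0.63, and HSPA6 by 0.04 with an interval of -0.36 to 0.43. On this log2(TPM + 1) scale both intervals end far below the change with disulfiram. HSPA6 lay at 0.07 to 0.19 TPM in the thalidomide and control libraries, far below the pseudocount of 1. Its interval therefore does not bound a fold change of TPM itself. A p that missed the threshold does not show that smaller changes were absent.

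The combination was set against disulfiram alone to see what thalidomide added. None of the 10 genes passed limma's adjusted threshold, and none had an unadjusted p below 0.05, where 1 of all genes (0.00651%) passed and 2631 had such an unadjusted p. No gene of the 10 had combination libraries wholly above or below those of disulfiram (9.69% and 6.54% of all genes did). The intervals of the log2 difference, combination minus disulfiram, were -0.17 to 0.97 for CRYAB, -0.06 to 0.72 for HSPA6, -0.31 to 0.70 for HSPA1A and -0.23 to 0.21 for DNAJB1. HSPH1 and HSP90AA1 had the largest differences, 0.66 ± 0.32 (adjusted p = 0.303) and 0.60 ± 0.37 (adjusted p = 0.389). This comparison followed GC content across genes (rho -0.63), and the correction lowered those differences to 0.31 and 0.42.

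The interaction (log2 scale: combination less disulfiram less thalidomide, with control added back) was called for none of the 10 genes and none of all genes by limma (0.0%), with 1 of the 10 and 1580 of all genes at an unadjusted p below 0.05. That gene was HSPH1, at 1.03 ± 0.45 (adjusted p = 0.466), and HSP90AA1 was at 1.09 ± 0.52 (adjusted p = 0.466). For the genes that rose with disulfiram the interaction ran from 0.10 for BAG3 to 0.53 for HSPA1A. The interaction also followed GC content across genes (rho -0.62), and the correction lowered it to 0.62 for HSPH1 and 0.86 for HSP90AA1.

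The combination was also set against thalidomide, where disulfiram is the drug that differs. Of the 10 genes, 7 rose and none fell, beside 25.0% of all genes that rose, 7.24% that fell and 32.2% that passed in either direction. The 7 were the 6 named above and HSPH1, which measured 1.26 ± 0.32 (log2, adjusted p = 0.0136) and missed the threshold without combination library 1 (adjusted p = 0.0603) or combination library 3 (0.0513). HSP90AA1 was at 0.83 ± 0.37 (adjusted p = 0.0965), and passed without combination library 2 (1.25, adjusted p = 0.0127) or thalidomide library 3 (1.14, adjusted p = 0.0429). This comparison shares its combination libraries with the comparisons above.

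The order of the mean levels differed between groups with and without disulfiram. With the combination it ran HSPB1, HSPA8, CRYAB, HSPA1A, DNAJB1, HSP90AA1, HSPA1B, HSPA6, HSPH1 and BAG3, and with disulfiram HSPB1, HSPA8, HSPA1A, CRYAB, DNAJB1, HSPA1B, HSP90AA1, HSPA6, BAG3 and HSPH1. With thalidomide and in control it ran HSPB1, HSPA8, DNAJB1, HSP90AA1, HSPA1A, HSPA1B, BAG3, HSPH1, CRYAB and HSPA6. Neighbours whose libraries overlapped in control were DNAJB1 with HSP90AA1 and HSPA1A with HSPA1B. With the combination CRYAB, HSPA1A, DNAJB1, HSP90AA1 and HSPA1B formed an unbroken chain of overlapping neighbours.

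Over the 12 libraries, the protein-coding genes outside the 10 whose log2(TPM + 1) followed CRYAB most closely among 9656 candidates were MT1B (Pearson r 0.9955), RND1 (0.9943) and HBA1 (0.989). For HSPA6 they were MT1B (0.9976), RND1 (0.9967) and CCL26 (0.9894). These coefficients rest on the gap between libraries with and without disulfiram, since MT1B averaged 169.1 TPM with the combination and 156.9 TPM with disulfiram, against 0.26 TPM with thalidomide and 0 TPM in control, where it is listed at 0 in each library. MT1B belongs to a family of near-identical metallothionein genes, so its reads may be shared with its relatives. HSP90AA1 was followed by SKIL (0.9836), NIPBL (0.9812) and MRPL3 (0.9796), genes of 33.39%, 39.47% and 42.44% GC, and shared with them the library differences described above.

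Other chaperone and heat shock genes were counted in lists, which were chosen with earlier results of these data known. Apart from genes always given, those named were mainly the called genes that changed most. Heat shock factor 1, the transcription factor of the response, averaged 52.53 ± 5.11 TPM with the combination and 58.21 ± 3.1 TPM with disulfiram, against 53.32 ± 0.67 TPM in control (SD, n = 3 each; adjusted p = 0.832 and 0.37). HSF2 did not pass either (adjusted p = 0.103 with the combination and 0.582 with disulfiram). Of the 5 tested genes among 6 heat shock factors and their regulators, limma called none with disulfiram, and 2 had an unadjusted p below 0.05. Such a p was found for 4276 of all 15352 genes. With the combination 2 of the 5 rose, beside 18.4% of all genes tested. They were HSBP1, which binds heat shock factor 1 and dampens it (0.52 ± 0.12, adjusted p = 0.0122), and HSF4, a factor known from the lens (0.71 ± 0.23, adjusted p = 0.0409). HSBP1 missed the threshold without combination library 3 (adjusted p = 0.0543), with median-of-ratios scaling (0.124) and with GC correction (0.19). HSF4 missed it without combination library 1 or 3, disulfiram library 3 or any control library (adjusted p = 0.0517 to 0.156) and with median-of-ratios (0.116) or quantile scaling (0.161), among others. Of 19 further genes known as heat shock factor targets, 3 rose and 1 fell with disulfiram, with a list median of 0.09 equal to that of all genes. With GC correction 3 rose and 4 fell, and with array weights 4 rose and 4 fell. Among all genes 1340 rose and 694 fell with disulfiram. These numbers were 1378 and 1576 with GC correction, and 2690 and 1192 with array weights. IER5, which helps activate heat shock factor 1, rose to 11.29 ± 0.812 TPM, against 5.84 ± 0.259 TPM in control (log2 0.84 ± 0.11, adjusted p = 0.000505). DEDD2 (0.46 ± 0.09, adjusted p = 0.00597) and HMOX1, the heme oxygenase (0.56 ± 0.11, adjusted p = 0.00681), rose as well, although DEDD2 missed the threshold with median-of-ratios scaling (adjusted p = 0.0787). The gene that fell was FKBP4, described with the HSP90 partners.

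Relatives of the 10 genes were counted in the same way. Of 5 other cytosolic HSP70 and HSP110 genes, HSPA1L, the neighbour of HSPA1A, rose with disulfiram to 3.343 ± 0.534 TPM, against 0.98 ± 0.0755 TPM in control (log2 1.13 ± 0.15, adjusted p = 0.000918), and reads from HSPA1A may be shared with it. Of 8 other small heat shock protein genes only 3 were expressed enough for testing. HSPB7 rose to 2.487 ± 0.535 TPM with disulfiram, against 0.8833 ± 0.224 TPM in control (adjusted p = 0.00599). HSPA1L and HSPB7 reached 1 TPM in every library with disulfiram but in fewer than 3 libraries without it. As for HSPA6, their place among the genes tested and their rises therefore come from the same values. Of 14 other cytosolic DNAJ genes, DNAJB2, a J protein that hands clients to the proteasome, rose to 91.64 ± 2.2 TPM with disulfiram, against 50.8 ± 4.55 TPM in control (log2 0.84 ± 0.09, adjusted p = 0.000184). The list median of these DNAJ genes was 0.00 with disulfiram, against 0.09 over all genes. With the combination 6 of the 14 rose and none fell. The count of rises was 2 without combination library 1 or 3 or control library 1 or 2 and 3 without control library 3, and it was 10, with 1 fall, without combination library 2. Rises over all genes with the combination moved as well, from 2823 with all libraries to 1114 and 936 without combination library 1 or 3. They were 1313, 1944 and 1401 without control library 1, 2 or 3, and 3865 without combination library 2. None of 6 other BAG and exchange factor genes was called by limma in either comparison, and 0 had an unadjusted p below 0.05. Among all 15352 genes, 4276 had such a p with disulfiram and 6449 with the combination.

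Of 15 genes of HSP90 and its co-chaperones, 1 rose and 3 fell with disulfiram, with a list median of -0.15 against 0.09 over all genes. Beside HSP90AB1, FKBP5, an immunophilin that holds steroid receptors on HSP90, fell by 0.76 on the log2 scale (adjusted p = 0.0112). FKBP4, its counterpart that promotes receptor maturation, was at -0.36 ± 0.10 (adjusted p = 0.0352), a call lost without disulfiram library 1 or 3, any control library or combination library 3 (adjusted p = 0.0525 to 0.127), with a replicate block (0.0535) and with no filter on low TPM (0.0746). With the combination FKBP4 fell by 0.58 on the log2 scale (adjusted p = 0.00349). CDC37, which brings kinases to HSP90, was at 0.26 ± 0.07 (adjusted p = 0.0241), and this call was lost without disulfiram library 2 or 3 or any control library (adjusted p = 0.054 to 0.0869), with median-of-ratios scaling (0.14, adjusted p = 0.466), with GC correction (0.17, adjusted p = 0.0683) and with both a replicate block and GC correction (adjusted p = 0.079). The count of 4 was 2 without disulfiram library 3 or any control library. Calls over all genes were 2034 with all libraries and 1170 to 1357 when any of those libraries was left out.

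The chaperonin and prefoldin, a further folding system of the cytosol, were followed through 14 subunit genes. Limma called none with disulfiram, and 1 had an unadjusted p below 0.05, beside 4276 of all 15352 genes. With the combination 2 rose, the prefoldin subunit genes PFDN4 (0.72 ± 0.15, adjusted p = 0.00846) and PFDN1 (0.42 ± 0.12, adjusted p = 0.0249), and neither passed with GC correction (0.19, adjusted p = 0.367, and 0.29, adjusted p = 0.06). PFDN1 also missed the threshold with median-of-ratios scaling (adjusted p = 0.231) and without combination library 1 or 3 or control library 1 or 2 (0.0509 to 0.0992). The count of 2 was 1 when any of those libraries was left out and 5 without combination library 2. Beside this, 2823 of all genes rose with all libraries in the fit. That number was 1114 and 936 without combination library 1 or 3, 1313 and 1944 without control library 1 or 2, and 3865 without combination library 2.

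Chaperones of other compartments were counted as well. Of 13 chaperone genes of the endoplasmic reticulum, 10 fell and none rose with disulfiram, with a list median of -0.58 against 0.09 over all genes. With the combination 8 fell and none rose, with a median of -0.46. Beside this, 4.52% of all genes fell with disulfiram and 6.7% with the combination. PDIA4, a disulfide isomerase, fell to 110.8 ± 13.7 TPM with disulfiram, against 246.2 ± 22.2 TPM in control (log2 -1.15 ± 0.11, adjusted p = 0.000116). HSPA5, the HSP70 of the endoplasmic reticulum known as BiP, fell to 154.0 ± 14.0 TPM with disulfiram, against 251.7 ± 7.12 TPM in control (log2 -0.71 ± 0.13, adjusted p = 0.00421). HSPA5 also fell with the combination (-0.45 ± 0.13, adjusted p = 0.0247), a call that was lost without combination library 2 or 3 or control library 1 or 3 (adjusted p = 0.0552, 0.0701, 0.0733 and 0.0649). Of 11 mitochondrial chaperone genes, TRAP1, the mitochondrial HSP90, was the only gene called with disulfiram (log2 -0.65 ± 0.10, adjusted p = 0.00174). The number that fell with disulfiram was 2 without combination library 2, disulfiram library 1 or disulfiram library 2, 5 with median-of-ratios scaling, and 6 with GC correction and with array weights, and none rose under any of these. Falls over all genes were 694, and 759, 457 and 641 without those libraries in that order. They were 1050 with median-of-ratios scaling, 1576 with GC correction and 1192 with array weights. With the combination 3 fell and none rose, TRAP1 (-0.79 ± 0.10, adjusted p = 0.000624), the protease gene LONP1 (-0.38, adjusted p = 0.0195) and the J protein gene DNAJA3 (-0.34, adjusted p = 0.0126). The count of 3 was 1 without combination library 1 or control library 3, since LONP1 (adjusted p = 0.0802 and 0.0615) and DNAJA3 (0.0555 and 0.0524) were then lost, and LONP1 was also lost without combination library 3 (0.0789) or control library 2 (0.0563). With the combination 1029 of all genes fell, and 561 and 692 did without combination library 1 or control library 3.

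The labelled cell type was checked against its markers. All 8 hepatocyte and hepatoma markers were expressed, summing to 3626 to 4750 TPM with the combination, 4028 to 4088 TPM with disulfiram, 5443 to 7577 TPM with thalidomide and 4255 to 6783 TPM in control. Limma called 1 of the 8 as lower than control with disulfiram and 1 with the combination, and none as higher. Of all genes tested, 4.52% and 6.7% fell. The list medians were -0.62 and -0.38, against 0.09 and 0.20 over all genes. With the combination against thalidomide 6 fell and none rose, with a median of -0.89 against 0.22 over all genes, of which 7.24% fell. Of 6 leukocyte markers only CD14 and LYZ reached 1 TPM, and MS4A1 was listed at 0 throughout. Their sum ran from 87.21 to 96.05 TPM with the combination, 64.43 to 130.4 TPM with disulfiram, 117.7 to 169.3 TPM with thalidomide and 104.5 to 174.1 TPM in control. Of 4 endothelial markers only PECAM1 reached 1 TPM, and their sum was 3.83 to 5.43 TPM with the combination, 3.52 to 7.42 TPM with disulfiram, 1.66 to 2.51 TPM with thalidomide and 0.79 to 1.55 TPM in control. Of 6 fibroblast and stellate markers 3 reached 1 TPM, summing to 53.94 to 84.71 TPM over all 12 libraries. CD14 averaged 79.34 ± 1.43 TPM with the combination and 81.86 ± 35.0 TPM with disulfiram, against 131.8 ± 35.3 TPM in control (SD, n = 3 each), log2 changes of -0.69 (adjusted p = 0.0741) and -0.73 (adjusted p = 0.0928) that did not pass. PECAM1 and LYZ rose with disulfiram (adjusted p = 0.00248 and 0.0213), and the endothelial gene CDH5 was at 0.01 ± 0.0173 TPM with disulfiram and 0.04667 ± 0.0451 TPM in control. The part of the hepatocyte markers, CD14, PECAM1 and LYZ in the chaperone results was not tested.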

How the data were processed

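RNA from 12 Huh7 libraries was sequenced, and the authors deposited TPM per gene in a single table whose columns sum to the same total, so that no read depth can be recovered. Per the submitters' processing notes, reads were handled with HISAT2 2.0 and StringTie 1.3.0 on hg38; annotation, filters and strand setting are not stated in the sources used here. Symbols and coordinates came from GENCODE 29 and promoter sequences from RefSeq (GRCh38.p14). Genes that reached 1 TPM in 3 or more of the 12 libraries were tested on log2(TPM + 1), which makes changes of low genes smaller, with limma 3.58.1 (R 4.3.3, mean-variance trend, all libraries in a single fit, two-sided, no replicate term). The fit was tested on simulated data. The 10 members and all gene lists were chosen with earlier results of these data known. From each list up to 3 called genes, those that changed most, could be named, or the 2 with the highest TPM where none passed; HSF1, HSF2, HSP90AB1 and HSPA5 were always given, and up to 5 genes of like pattern. Marker genes named and CDC37 were chosen after their values were seen. HSPA14 has 2 rows, of which the first was used. Alternatives were other pseudocounts, filters and scalings, array weights, GC correction, a replicate block and leaving out each library.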

Additional observations from a re-analysis of the deposited data

How the results depend on the processing

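The calls of CRYAB, HSPA6, HSPA1A and HSPA1B against control, with disulfiram and with the combination, and those of DNAJB1 and BAG3 with disulfiram kept their direction and side of the threshold in all alternatives run. The lowest and highest CRYAB log2 changes with disulfiram were 5.07 and 6.76. The number of the 10 genes called with disulfiram was 6 whichever library was left out and 5 to 6 otherwise (5 where the HSPA1A and HSPA1B rows were summed), and with the combination it was 5 to 7 without a library and 4 to 8 otherwise. Array weights, whose estimation did not converge fully, called 2 genes for the combination against disulfiram, HSPA6 (0.53, adjusted p = 0.0177) and HSPH1 (0.67, adjusted p = 0.047). With HSPA2, HSPA1L and HSPA14 added to the HSP70 total the inducible share averaged 43.16% with the combination and 19.22% in control.

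Same-numbered libraries did not deviate together in every pair (correlations -0.15 to 0.37), so replicate numbers were not taken as pairs; with a replicate block 7 genes were called with the combination and 6 with disulfiram, the added gene being HSPH1 (adjusted p = 0.0276).

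Over all genes, the count called with disulfiram was 2034 and fell to 1170 to 1357 when a disulfiram library other than the second or any control library was left out; array weights gave 3882. With the combination it was 3852, fell to 1429 to 2093 without combination library 1 or 3 or control library 1 or 3, and was 8162 with array weights and 5846 without both second libraries. For the combination against thalidomide it was 4946, fell to 2171 to 2407 without combination library 1 or 3 or thalidomide library 1, and was 7540 with array weights. For the combination against disulfiram it was 1 and reached 36 without combination library 2 and 2902 with array weights; for thalidomide against control it was 0 and reached 25 without control library 1. Rises made up 73.3% of calls with the combination and 65.9% with disulfiram; quantile normalization gave 41.8% and 47.6%, and GC correction 45.3% and 46.6%. For the combination against thalidomide the share was 77.5%, and 40.0% with median-of-ratios scaling. Among the named genes, whose log2 changes were followed through the alternatives, no change past the threshold reversed. The depth is unknown, so precision rests on the 3 libraries per group alone, and TPM is rounded to 2 decimals, which makes values near 0.1 coarse.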
